A study of Mus musculus with 8 samples.

Results

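The genes described here encode the extracellular matrix of the islet and mark the cells that make most of it, fibroblasts and pericytes. They are 42 genes of the 53012 gene identifiers in the count table, taken by their mouse symbols, and none of the 42 fell under the filter on low counts. By what their products build, 12 were placed in a basement membrane list, 25 in a fibrillar matrix list and 5 in a pericyte list. Their transcripts were counted by RNA-seq of whole islet RNA. The groups were 4 βIgf1r mice, labelled CTRL, and 4 βIgf1rKD mice, labelled KD, with 1 library for each mouse. All 8 mice were 17 months old and carried Igf1r alleles with a floxed exon 3 (Igf1r flox/flox), and each group held both sexes. The βIgf1rKD mice were Ins1-CreERT2+/- and received 5 daily doses of tamoxifen at 0.075 mg/g in corn oil, whereas the βIgf1r mice were Ins1-CreERT2-/- and received corn oil. The Cre is described in the study's methods as driven by a rat insulin promoter, so that recombination was directed at β-cells and not at the matrix-producing cells. Cre and tamoxifen differed together between the groups and cannot be told apart. Islets were taken 7 days after the last injection, by collagenase digestion, filtering and gradient separation, and each preparation therefore held whatever endothelial, mural, immune and exocrine cells came with the islets.

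A basement membrane is a thin sheet of matrix in which a collagen IV network and a laminin network are joined by nidogens and the heparan sulfate proteoglycan perlecan. In islets it lies mainly along capillaries, and β-cells contact it there through integrins. Fibrillar matrix is the looser, load-bearing matrix of collagen fibrils and elastic fibres around islets, ducts and larger vessels, and fibroblasts make most of it. Pericytes are mural cells that wrap capillaries, share the vascular basement membrane with endothelial cells and are recognised by PDGF receptor β, the proteoglycan NG2 and, where they are contractile, smooth muscle actin.

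Depth and the targeted gene were examined first. Estimated counts summed to between 21633925 and 42391106 per mouse, and 15474 genes passed the filter on low counts. By edgeR's quasi-likelihood test, 0 of these genes, or 0.0%, had an adjusted p under 0.05, 8 did by DESeq2 and 1 by limma-voom, and 637 had an unadjusted p under 0.05 in the edgeR fit, which is 4.12%, with 2.23% higher and 1.89% lower in βIgf1rKD mice. The mice of the groups did not overlap for 2.22% of genes. Igf1r, the targeted gene, had 46.9, 47.98, 60.9 and 58.7 CPM (counts scaled to library size after TMM) in βIgf1r mice M148, M151, M152 and M153, and 46.9, 50.2, 57.9 and 47.8 CPM in βIgf1rKD mice M145, M146, M149 and M150. The groups overlapped, and the log2 fold change was -0.08 (SE 0.11, unadjusted p = 0.483 by edgeR). Since transcripts that lack the floxed exon can still be counted, this total is no check of the labels. Values of single mice are given in this order of mice throughout. Because the samples are whole islet preparations, fewer cells of a type and less RNA per cell cannot be told apart.

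Sequence upstream of the transcription start was available in RefSeq for 26 of the 42 genes. The 250 bases before the start are given for 5 genes whose window held no exon annotated in GENCODE M21, chosen so that each list is represented and each gene is described by its values in every mouse. They were searched for 4 short motifs. These were a TATA box written as TATANA on the gene's strand, the CCAAT motif, a GC box written as GGGCGG and an AP-1 site written as TGANTCA, the last 3 on both strands, and N stands for any base. Matches are in capitals. Coordinates are those of GRCm38.p6, and each sequence reads 5′ to 3′ on the gene's strand.
Lama5, chr2:180225860-180226109, - strand: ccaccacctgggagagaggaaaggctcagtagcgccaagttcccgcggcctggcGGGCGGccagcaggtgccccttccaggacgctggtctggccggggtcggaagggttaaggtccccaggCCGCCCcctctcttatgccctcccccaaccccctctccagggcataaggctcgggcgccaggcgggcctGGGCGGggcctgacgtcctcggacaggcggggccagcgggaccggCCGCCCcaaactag
Col15a1, chr4:47207762-47208011, + strand: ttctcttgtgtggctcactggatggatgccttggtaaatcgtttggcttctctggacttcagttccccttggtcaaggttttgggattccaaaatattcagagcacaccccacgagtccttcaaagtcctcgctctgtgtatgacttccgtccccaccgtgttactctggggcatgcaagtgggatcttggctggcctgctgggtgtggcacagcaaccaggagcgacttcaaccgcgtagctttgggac
Col3a1, chr1:45311288-45311537, + strand: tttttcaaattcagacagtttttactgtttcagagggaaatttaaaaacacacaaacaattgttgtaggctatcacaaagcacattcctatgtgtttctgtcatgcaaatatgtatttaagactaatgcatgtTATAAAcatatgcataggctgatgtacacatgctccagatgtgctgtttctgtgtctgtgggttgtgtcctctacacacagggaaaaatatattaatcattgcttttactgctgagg
Bgn, chrX:73483351-73483600, + strand: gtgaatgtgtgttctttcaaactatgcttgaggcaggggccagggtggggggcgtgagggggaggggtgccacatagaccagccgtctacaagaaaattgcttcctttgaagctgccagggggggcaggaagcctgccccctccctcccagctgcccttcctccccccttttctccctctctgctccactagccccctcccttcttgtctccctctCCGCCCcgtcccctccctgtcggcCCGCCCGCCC
Des, chr1:75360042-75360291, + strand: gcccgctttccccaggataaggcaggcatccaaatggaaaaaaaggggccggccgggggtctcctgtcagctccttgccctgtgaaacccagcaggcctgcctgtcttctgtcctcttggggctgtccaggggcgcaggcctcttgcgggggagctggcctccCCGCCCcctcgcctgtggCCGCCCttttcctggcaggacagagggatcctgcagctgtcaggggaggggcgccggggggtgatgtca

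Col3a1 had a match to the TATA letters at bases -117 to -112 from the start, and no GC box. Bgn, Lama5 and Des had GC boxes and no TATA match, and Col15a1 had none of the 4 motifs in its window. Of the genes with a window, 0 of 9 basement membrane genes, 3 of 14 fibrillar matrix genes and 0 of 3 pericyte genes held a TATA match, beside 16.4% of all 32851 windows of this length. For each motif a gene was counted if any of its windows held a match, and some genes, such as Col18a1 and Postn, had 2 windows. The shares are over single windows, so they are not on the same footing as the counts of genes. A CCAAT motif was present in 5, 3 and 0 genes of these lists, beside 33.85% of all windows, and a GC box in 6, 8 and 2 genes, beside 32.7%. An AP-1 match was found in 1 gene, Col6a1, beside 6.75% of all windows. No motif was shared by all genes of a list.

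These genes varied most between βIgf1rKD mice, in a way that differed by list, and none passed the test between the groups. Of the 42 genes, 0 had an adjusted p under 0.05 by edgeR, DESeq2 or limma-voom (smallest adjusted p 0.987 by edgeR), and 1 reached an unadjusted p under 0.05 by edgeR, which is 2.38% of the genes beside 4.12% of all genes tested. The groups overlapped for all 42 genes. The fibrillar matrix genes together summed to 342, 332, 317 and 283 CPM in the βIgf1r mice and to 240.1, 170.3, 773 and 392 CPM in the βIgf1rKD mice. Mouse M149 was therefore above every other mouse and mouse M146 below every other mouse, and the highest sum exceeded the lowest 4.54-fold in βIgf1rKD mice and 1.21-fold in βIgf1r mice. The basement membrane genes summed to 295, 312, 368 and 269.5 CPM in the βIgf1r mice and to 236, 281, 388 and 276 CPM in the βIgf1rKD mice, a range of 1.37-fold and 1.65-fold. The pericyte genes summed to 30.2, 35.9, 28.7 and 26.9 CPM and to 21.1, 20.7, 30.3 and 48.8 CPM, with mouse M150 the highest.

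**Figure D1:**
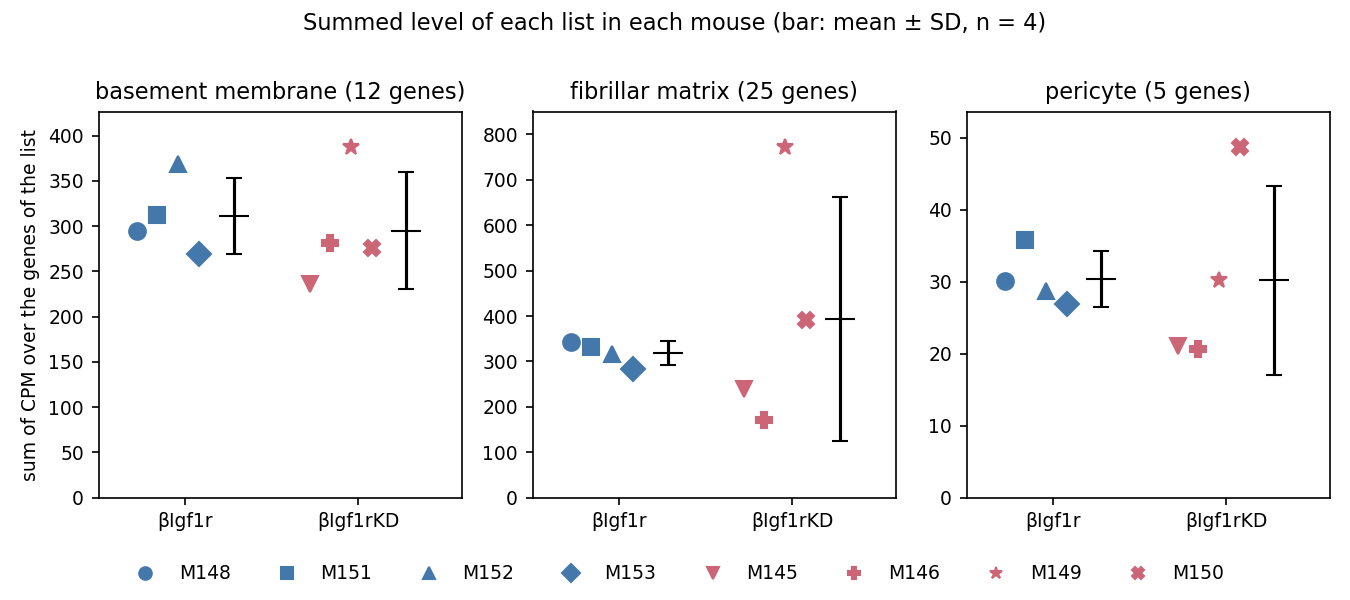
Sum of CPM over the genes of each list (vertical axis) in each of the 4 βIgf1r (blue) and 4 βIgf1rKD mice (red), with the mean ± SD of each group as a black bar. Mouse M149 stands at 773 CPM for fibrillar matrix, where the other βIgf1rKD mice lie between 170 and 392 CPM, and mouse M150 is the highest for pericyte genes at 48.8 CPM.

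In the basement membrane list, Nid2 had the lowest log2 fold change and the only unadjusted p under 0.05. Nid2 (ENSMUSG00000021806, chr14:19751265-19811787 in GENCODE M21) encodes nidogen-2, which links laminin to collagen IV. It had 10.7, 7.71, 9.398 and 9.76 CPM in βIgf1r mice and 5.38, 6.78, 8.14 and 7.23 CPM in βIgf1rKD mice. A βIgf1rKD mouse, M149, lay above the lowest βIgf1r mouse, M151, so the groups overlapped. The βIgf1r mice averaged 9.4 ± 1.26 CPM (SD, n = 4), the βIgf1rKD mice averaged 6.88 ± 1.15 CPM (SD, n = 4), and the log2 fold change was -0.45 (SE 0.15). By edgeR the p was 0.0151 unadjusted and 0.987 adjusted over all genes tested, and the unadjusted p was 0.0502 without mouse M148. Nid1, which encodes the other nidogen, had 21.7, 23.6, 18.6 and 18.9 CPM and 17.3, 13.7, 26.7 and 21.01 CPM, with mouse M149 the highest and mouse M146 the lowest.

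The collagen IV genes were the most abundant of this list per kb of transcript. Col4a1 (chr8:11198423-11312826) and Col4a2 (chr8:11312805-11449287), neighbours on opposite strands that overlap at their starts, encode the α1 and α2 chains of the network found in nearly all basement membranes. Col4a1 had 106, 101, 133 and 91.4 CPM in βIgf1r mice and 84.5, 108, 126 and 94.1 CPM in βIgf1rKD mice. Col4a2 had 50.6, 47.1, 65.4 and 40.3 CPM and 40.1, 50.7, 67.9 and 42.3 CPM. For both genes M152 of the βIgf1r and M149 of the βIgf1rKD mice were the highest, and M145 the lowest. The log2 fold change of Col4a1 was -0.06 (SE 0.15, unadjusted p = 0.689 by edgeR). That of Col4a2 was -0.02 (SE 0.19, unadjusted p = 0.921 by edgeR), and both changed sign in some alternatives.

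Col15a1 and Col18a1 encode multiplexins, collagens whose C-terminal fragments include endostatin in the case of Col18a1. Col15a1 had 26.99, 27.97, 29.2 and 19.4 CPM in βIgf1r mice and 19.5, 20.7, 40 and 21.3 CPM in βIgf1rKD mice, a log2 fold change of -0.03 (SE 0.23, unadjusted p = 0.892 by edgeR). Mouse M149 was the highest of all 8, and without it the log2 fold change was -0.34 (unadjusted p = 0.0403 by edgeR). Because the highest mouse was left out, that p is a description and no test. Col18a1 had 5.64, 5.68, 5.23 and 2.75 CPM and 2.901, 2.68, 8.53 and 5.48 CPM, and was likewise highest in M149. Here low values were not confined to a group, since M153, M145 and M146 were all below 3 CPM.

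Laminins are trimers of an α, a β and a γ chain, and α4 and α5 are the chains of vascular basement membranes. Lama5, whose upstream sequence is shown above, had the highest log2 fold change of the list. It had 5.35, 8.48, 9.43 and 5.97 CPM in βIgf1r mice and 5.99, 7.75, 15.7 and 7.03 CPM in βIgf1rKD mice, a log2 fold change of 0.32 (SE 0.31, unadjusted p = 0.335 by edgeR) that was -0.08 without M149. Lama4 differed from Lama5 in that M149 was not high, with 7.37, 10.2, 7.97 and 8.34 CPM and 6.597, 7.25, 6.79 and 7.87 CPM. Lamb1 and Lamb2, which encode β chains, had 8.61, 10.03, 13.7 and 11.1 CPM and 7.16, 8.18, 10.3 and 8.68 CPM in βIgf1rKD mice, and were highest in M152, a βIgf1r mouse. Lamc1, the common γ chain, had 24.04, 34.1, 33.1 and 28.2 CPM and 22.5, 27.2, 30.9 and 29.7 CPM. Hspg2, which encodes perlecan, had 16.02, 23.3, 28.2 and 23.5 CPM and 15.1, 17.7, 33.3 and 20.2 CPM, with M149 the highest. Genes of this list whose values are given without a test were named after their values were seen.

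By direction, 10 of the 12 basement membrane genes had a log2 fold change below 0 and 2 above 0, Lama5 and Col18a1, with a median of -0.07, beside 52.3% of all genes tested above 0 and a median of 0.01. The count above 0 was 0 without mouse M149, with a median of -0.30, and 6 without mouse M145, without mouse M152 or with Xist as a covariate. Without M149 an unadjusted p under 0.05 was reached by Col15a1, Lamb1, Lamb2 and Nid2, and an adjusted one by 0 genes. Over all genes, 637 were under 0.05 unadjusted with 8 mice, and 383 to 1114 with a mouse left out. The number without M149 lay within that range and is not given singly, so these genes are not set against a share of all genes. M149 was the highest βIgf1rKD mouse for each of the genes named, so the fit without it is a description. In 8 of the 12 genes M145 was the lowest mouse, and in 6 M149 was the highest. When the endothelial marker score entered the fit, 8 of the 12 genes were above 0, with a median of 0.23, and Nid2 turned to 0.20 (unadjusted p = 0.417 by edgeR). That score did not overlap between the groups, so that its part and the group's cannot be told apart in that fit.

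In the fibrillar matrix list, mouse M149 had the highest level for 21 of 25 genes and mouse M146 the lowest for 22 of 25, beside 16.2% and 15.8% of all genes tested. With all 8 mice 23 of the 25 genes had a log2 fold change above 0, with a median of 0.44, and without M149 only 4 had, with a median of -0.34, beside 52.3% and 51.6% of all genes in these fits. The count above 0 was 12 by limma-voom, with a median of -0.03, and 11 with the acinar marker score as a covariate, with a median of -0.04, and lay between 21 and 23 with other size factors, DESeq2 or other filters. In the edgeR fit without a covariate, none of the 25 genes had an unadjusted p under 0.05 with all 8 mice. With Xist as a covariate the median was 0.53, and Col6a3, Eln and Lox were under 0.05, beside 1143 of all 15474 genes. With the endothelial marker score the median was 1.79, 22 genes were above 0 and 10 were under 0.05. The number of all genes under 0.05 with the endothelial score is not given here, so whether the 10 stand out cannot be judged. As this score did not overlap between the groups, its part and the group's cannot be told apart there. An adjusted p under 0.05 was reached by 0 genes with Xist or with the endothelial score. The direction that the list had in 8 mice was thus lost without M149. It was larger without the low mice, with 24 of 25 genes above 0 in each case. The median was 0.74 without M146, with Eln and Fbln1 at an unadjusted p under 0.05, beside 960 of all genes in that fit. It was 0.63 without M145, with Eln under 0.05, beside 383 to 1114 of all genes over the fits with a mouse left out. Both fits leave out a low βIgf1rKD mouse, so these calls are descriptions. The genes not highest in M149 were Fn1, Fbln5, Loxl2 and Thbs2, and those not lowest in M146 were Loxl2, Thbs2 and Tnc.

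**Figure D2:**
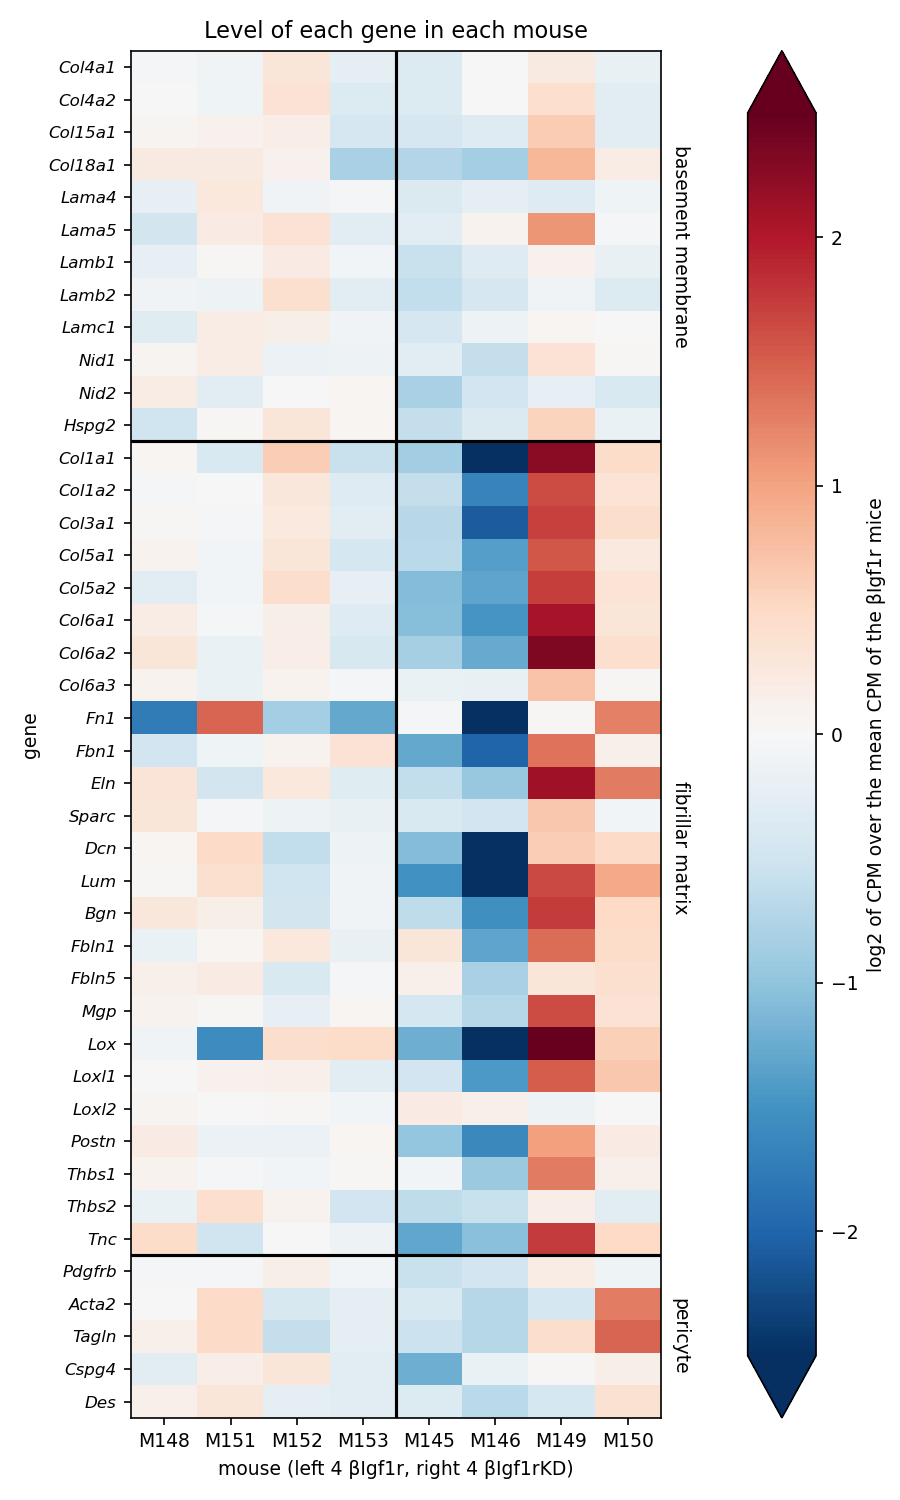
Log2 of the CPM of each of the 42 genes (rows) in each mouse (columns, 4 βIgf1r left and 4 βIgf1rKD right) over the mean CPM of the βIgf1r mice, with red above and blue below that mean and darker ends for values beyond 2.5. In the fibrillar matrix block the M149 column is red and the M146 column blue for most genes, whereas the basement membrane block is pale throughout and Acta2 and Tagln are red in M150.

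The fibrillar collagens followed this order of mice. Collagen I, the main fibril collagen, is made of chains encoded by Col1a1 and Col1a2, collagen III by Col3a1 accompanies it in soft tissue, and collagen V by Col5a1 and Col5a2 sets fibril diameter. Col1a1 had 11.9, 8.803, 17.6 and 7.87 CPM in βIgf1r mice and 6.32, 1.86, 54.8 and 15.8 CPM in βIgf1rKD mice. Col1a2 had 18.8, 19.5, 23.5 and 15.6 CPM and 12.8, 6.07, 59.7 and 24.3 CPM. Col3a1, with a TATA match in the sequence above, had 33.7, 31.9, 39.5 and 27.5 CPM and 20.5, 7.89, 108 and 44.9 CPM. For all 3 genes M149 was higher than every βIgf1r mouse, M150 was above every βIgf1r mouse for Col1a2 and Col3a1 and below M152 for Col1a1, and M145 and M146 were below every βIgf1r mouse. The level in M149 over the mean of the other 7 mice was 5.48-fold for Col1a1, 3.47-fold for Col1a2 and 3.67-fold for Col3a1. Col5a1 and Col5a2 followed the same order of βIgf1rKD mice, with 1.92, 1.18, 9.01 and 3.65 CPM and 2.34, 1.999, 16.5 and 6.27 CPM, where the βIgf1r mice ranged from 2.28 to 3.81 CPM and from 4.13 to 6.73 CPM.

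Collagen VI forms beaded microfilaments at the border between basement membrane and interstitial matrix, from chains encoded by Col6a1, Col6a2 and Col6a3. Col6a1 had 10.5, 8.91, 10.2 and 7.39 CPM and 4.398, 3.32, 38.6 and 11.4 CPM, and Col6a2 had 11.3, 8.19, 10.3 and 6.97 CPM and 5.15, 3.82, 46.3 and 12.3 CPM. Col6a3 had 17.4, 14.5, 17.3 and 16.1 CPM and 14.5, 14.4, 26.8 and 16.7 CPM. The range within βIgf1rKD mice was 11.6-fold for Col6a1 and 12.1-fold for Col6a2, but 1.87-fold for Col6a3, although the chains assemble with each other.

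Elastic fibres are built from elastin, encoded by Eln, on a scaffold of fibrillin-1, encoded by Fbn1, with fibulins encoded by Fbln1 and Fbln5. Eln had 5.94, 3.42, 5.696 and 3.84 CPM in βIgf1r mice and 3.09, 2.46, 20.4 and 11.6 CPM in βIgf1rKD mice, and both M149 and M150 were above all βIgf1r mice. Without M149 its log2 fold change was 0.29, and the other genes above 0 in that fit were Fn1, Loxl2 and Fbln1, the last at 0.00. Fbn1 had 1.12, 0.678, 7.01 and 2.96 CPM in βIgf1rKD mice and 1.97 to 3.51 CPM in βIgf1r mice. Fbln1 had 2.199, 0.714, 4.701 and 2.44 CPM against 1.56 to 2.14 CPM, and Fbln5 had 4.02, 2.11, 4.53 and 4.88 CPM against 2.85 to 4.26 CPM. Fn1, which encodes fibronectin, did not follow the other genes. It had 2.48, 22.9, 4.63 and 3.46 CPM and 8.23, 1.46, 8.53 and 20.1 CPM, highest in M151 and M150, which were also the highest mice for the glucagon gene Gcg, with 38220 and 28960 CPM. Gcg was lowest in M149, at 11940 CPM, where Fn1 was at 8.53 CPM. The part of Gcg-expressing cells in these values was not tested.

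Bgn, Dcn and Lum encode biglycan, decorin and lumican, small proteoglycans that bind collagen fibrils. Bgn (chrX:73483602-73495933) was among the 3 genes of the list with the highest level per kb, with 27.8, 25.3, 16.5 and 21.5 CPM and 14.6, 7.89, 76.3 and 32.01 CPM. Its log2 fold change was 0.52 (SE 0.57, unadjusted p = 0.384 by edgeR), and -0.32 without M149. Dcn was 1 of the 2 genes with a log2 fold change below 0 in the 8 mice, with 18.3, 24.8, 11.5 and 16.3 CPM and 8.33, 2.21, 27.1 and 24.6 CPM. For Dcn M149 and M150 were close to the highest βIgf1r mouse, M151, and M146 was the lowest of all. Lum had 3.03, 3.89, 2.1 and 2.796 CPM and 1.03, 0.4999, 9.27 and 5.67 CPM.

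Among the enzymes that cross-link collagen and elastin, Lox and Loxl1 followed the collagens and Loxl2 did not. Lox, which encodes lysyl oxidase, had the highest log2 fold change of the list on the lowest counts, between 2 and 115 per mouse. It had 0.719, 0.255, 1.03 and 1.04 CPM and 0.328, 0.0714, 5.01 and 1.16 CPM, with M149 far above the other mice. The log2 fold change was 1.099 (SE 0.96, unadjusted p = 0.281 by edgeR), and was -0.47 without M149, -0.046 by limma-voom and -0.18 with the acinar marker score as a covariate. Loxl1 had 1.54, 0.786, 6.14 and 3.43 CPM in βIgf1rKD mice, above all βIgf1r mice in M149 and M150. Loxl2 had 41.8, 39.4, 40.7 and 37.96 CPM and 46.1, 43.9, 36.6 and 39.7 CPM, the narrowest range of the list, with M145 the highest and M149 the lowest.

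Sparc and Mgp had the highest levels per kb of the fibrillar matrix list, 27.1 and 25.4 CPM per kb. Sparc encodes a collagen-binding matricellular protein that endothelial cells and fibroblasts both make, and had 75.97, 60.2, 57.03 and 54.7 CPM and 47.3, 44.7, 98.9 and 59.4 CPM. Its log2 fold change was 0.01 (SE 0.24, unadjusted p = 0.9604 by edgeR), and -0.30 without M149. Mgp encodes matrix Gla protein, an inhibitor of calcification, and had 13.8, 13.2, 11.2 and 13.4 CPM and 9.54, 7.89, 39.9 and 16.5 CPM. For both genes M149 was the highest and M146 the lowest mouse, and for Mgp the log2 fold change of 0.52 (SE 0.44, unadjusted p = 0.269 by edgeR) was -0.18 without M149.

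Thrombospondins, tenascin-C and periostin are matricellular proteins deposited where matrix is remodelled. Thbs1 had 22.9, 20.7, 20.5 and 21.9 CPM and 20.6, 11.3, 53.2 and 23.5 CPM, nearly flat in βIgf1r mice and high in M149. Thbs2, the gene with the lowest log2 fold change of the list at -0.29 (SE 0.28, unadjusted p = 0.325 by edgeR), had 1.17, 1.75, 1.39 and 0.948 CPM and 0.842, 0.893, 1.48 and 1.09 CPM. Tnc had 0.421, 0.4999, 3.44 and 1.46 CPM and Postn 2.81, 1.79, 11.1 and 6.27 CPM in βIgf1rKD mice, where βIgf1r mice ranged from 0.728 to 1.41 CPM and from 4.91 to 6.31 CPM. The range within βIgf1rKD mice thus reached 8.17-fold for Tnc and 6.22-fold for Postn, beside 1.76-fold for Thbs2. In the list as a whole, 24 of 25 genes had a wider range in βIgf1rKD than in βIgf1r mice, beside 51.7% of all genes, and the median range was 8.23-fold against 1.62-fold, beside 1.36-fold and 1.35-fold over all genes. The exception was Thbs2. These ranges are descriptions of 4 mice each, and no test of the spread was made.

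**Figure D3:**
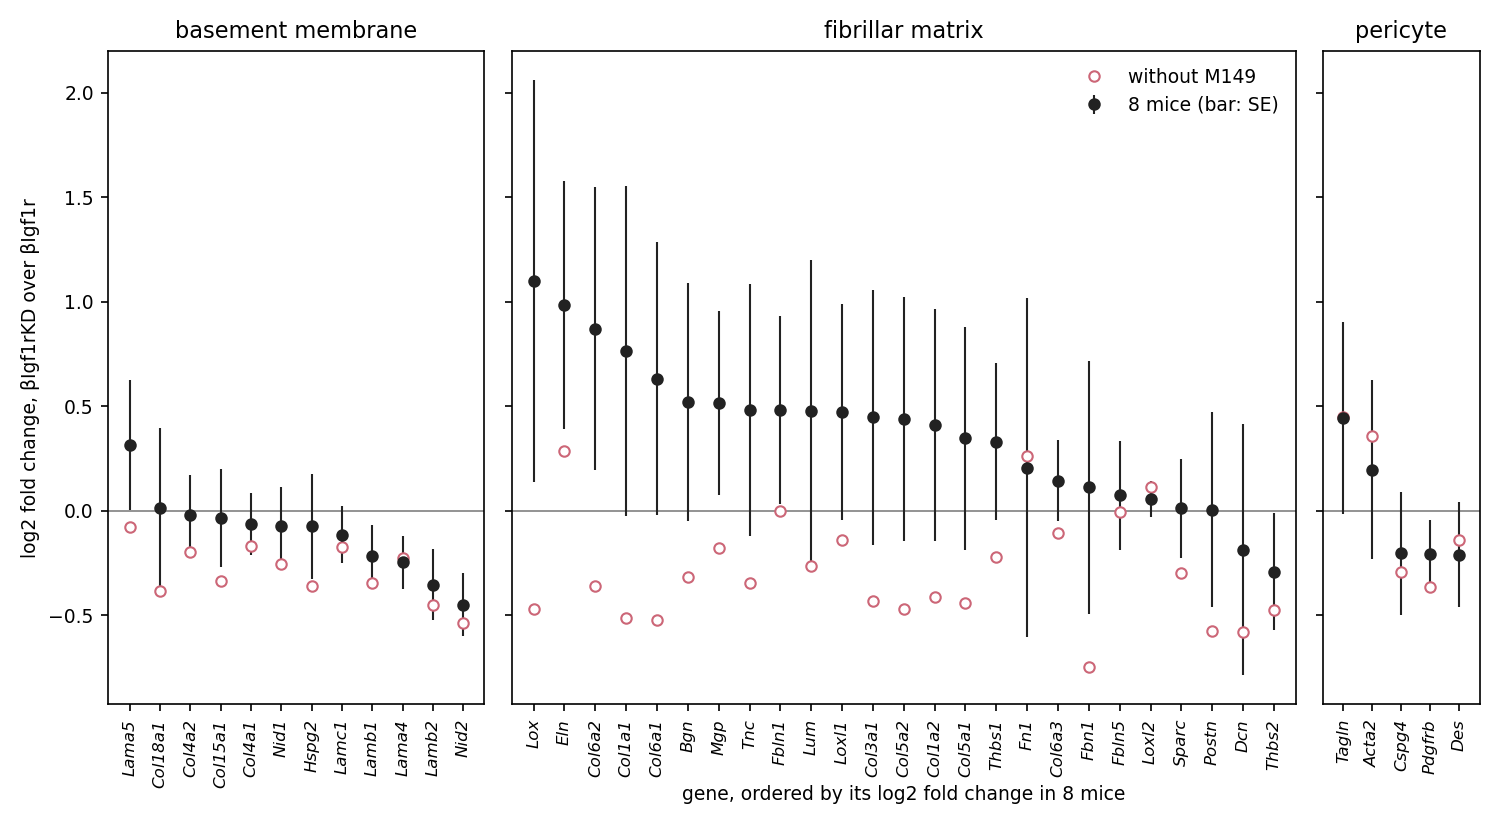
Log2 fold change of βIgf1rKD over βIgf1r mice (vertical axis) for each gene of the 3 lists (horizontal axis), with all 8 mice as black points with the SE of edgeR, and without mouse M149 as open red points. The fibrillar matrix genes move from a median of 0.44 with 8 mice to -0.34 without M149, and the basement membrane genes from -0.07 to -0.30.

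The pericyte list held 2 surface proteins and 3 proteins of the contractile apparatus or the filament system, and these differed in which mouse was high. Pdgfrb, which encodes the receptor through which PDGF-B recruits pericytes, had 11.6, 11.7, 13.2 and 11.3 CPM in βIgf1r mice and 8.14, 8.53, 13.6 and 11.2 CPM in βIgf1rKD mice. Its log2 fold change was -0.21 (SE 0.16, unadjusted p = 0.2301 by edgeR), and -0.36 without M149 (unadjusted p = 0.0263 by edgeR). Since M149 was the highest mouse for Pdgfrb, the p without it is a description and no test. Cspg4, which encodes NG2, had 2.502, 3.42, 3.77 and 2.51 CPM and 1.31, 2.71, 3.13 and 3.38 CPM, lowest in M145. For both genes no βIgf1rKD mouse stood far above the βIgf1r mice.

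Acta2 and Tagln, which encode smooth muscle α-actin and transgelin, were high in mouse M150. Acta2 (chr19:34241090-34255590) had 7.85, 10.95, 5.98 and 6.78 CPM and 6.08, 4.78, 5.79 and 19.2 CPM, and Tagln (chr9:45929619-45936058) had 4.05, 5.13, 2.42 and 3.13 CPM and 2.53, 2.25, 4.96 and 10.1 CPM. The log2 fold change of Acta2 was 0.20 (SE 0.43, unadjusted p = 0.654 by edgeR), and -0.51 without M150 (unadjusted p = 0.0458 by edgeR). The latter fit leaves out the highest mouse for Acta2, so its p is a description and no test. That of Tagln was 0.44 (SE 0.46, unadjusted p = 0.3597 by edgeR), and -0.19 without M150. Des, which encodes the intermediate filament protein desmin, had 4.15, 4.69, 3.24 and 3.13 CPM and 2.99, 2.39, 2.79 and 4.93 CPM, a log2 fold change of -0.21 (SE 0.25, unadjusted p = 0.428 by edgeR), and was also highest in M150, though less far above M151. The median log2 fold change of the 5 genes was -0.20 with 2 genes above 0, and -0.35 with 0 above 0 without M150, beside 52.3% of all genes above 0 in 8 mice. Myh11, a smooth muscle myosin gene outside the list, was highest in M150 too, with 6.22, 8.03, 5.35 and 18.9 CPM in βIgf1rKD mice.

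The 3 lists were set against each other within each library, where scaling between mice cancels. The log2 ratio of the basement membrane sum to the fibrillar matrix sum was -0.21, -0.09, 0.22 and -0.07 in βIgf1r mice and -0.03, 0.72, -0.995 and -0.51 in βIgf1rKD mice. The ratio thus lay within a narrow band in βIgf1r mice, whereas basement membrane exceeded fibrillar matrix in M146 and fell short of it in M149. The difference of the means was -0.16 with SDs of 0.18 and 0.73 (n = 4 in each group), and 0.10 without M149. Against the pericyte sum the log2 ratio was 3.29, 3.12, 3.68 and 3.33 in βIgf1r mice and 3.48, 3.77, 3.68 and 2.5 in βIgf1rKD mice, lowest in M150. The difference of the means was 0.00 with 8 mice, 0.29 without M150 and -0.13 without M146. For the sums themselves the difference in log2 was -0.09 for basement membrane, 0.07 for fibrillar matrix and -0.09 for pericyte genes, and without M149 it was -0.23, -0.33 and -0.13. Without M150 the pericyte difference was -0.355, and without M146 it was 0.057 and that of fibrillar matrix 0.39.

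Genes whose products assemble or belong to a family were then compared as ratios within a library, to see whether they kept their proportion while their sum varied. For 9 pairs the difference between the groups was tested by exact permutation of the mice, two-sided, which cannot give a p below 0.0286. The log2 ratio of Col4a1 to Col4a2 was between 0.89 and 1.18 in all 8 mice, which per kb of transcript corresponded to a mean of 2.08-fold more Col4a1 in βIgf1r and 2.03-fold more in βIgf1rKD mice (difference -0.04, exact permutation p = 0.657). Per kb Col1a1 was at 0.518 of Col1a2 in βIgf1r and at 0.495 in βIgf1rKD mice on average, and their log2 ratio ranged from -1.70 in M146 to -0.12 in M149 (difference -0.07, exact permutation p = 0.8286). The proportion of these collagen I chains thus varied over mice more than that of the collagen IV chains, by 1.57 against 0.29 on the log2 scale.

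Col6a1 relative to Col6a2 was the 1 pair without overlap between the groups. The log2 ratio was -0.11, 0.12, -0.01 and 0.09 in βIgf1r mice and -0.23, -0.20, -0.26 and -0.11 in βIgf1rKD mice. The lowest βIgf1r mouse, M148, and the highest βIgf1rKD mouse, M150, were nearly equal. The means were 0.02 ± 0.10 (SD, n = 4) and -0.20 ± 0.07 (SD, n = 4), a difference of -0.22. The exact permutation p was 0.0286, and 0.257 after adjustment over the 9 pairs, and is not a call. As 0.0286 is the lowest p that the permutation can give, a single pair at it could not fall under 0.05 after that adjustment. With any mouse left out the difference lay between -0.27 and -0.19. This difference was small beside the spread of each gene alone, and both genes lie on chromosome 10.

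Of the other pairs, Lama4 to Lama5 differed by -0.49 between the group means (exact permutation p = 0.257), Nid1 to Nid2 by 0.35 (exact permutation p = 0.20), Lamb1 to Lamc1 by -0.12 (exact permutation p = 0.229) and Lamb1 to Lamb2 by 0.11 (exact permutation p = 0.40). Nid1 exceeded Nid2 most in M151, M145, M149 and M150, with log2 ratios from 1.54 to 1.71. The ratio of Col6a1 to Col6a3 ranged from -2.11 in M146 to 0.53 in M149, the widest of the 9 pairs, and that of Col5a1 to Col5a2 from -0.92 to -0.28 (exact permutation p = 0.914 for each).

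**Figure D4:**
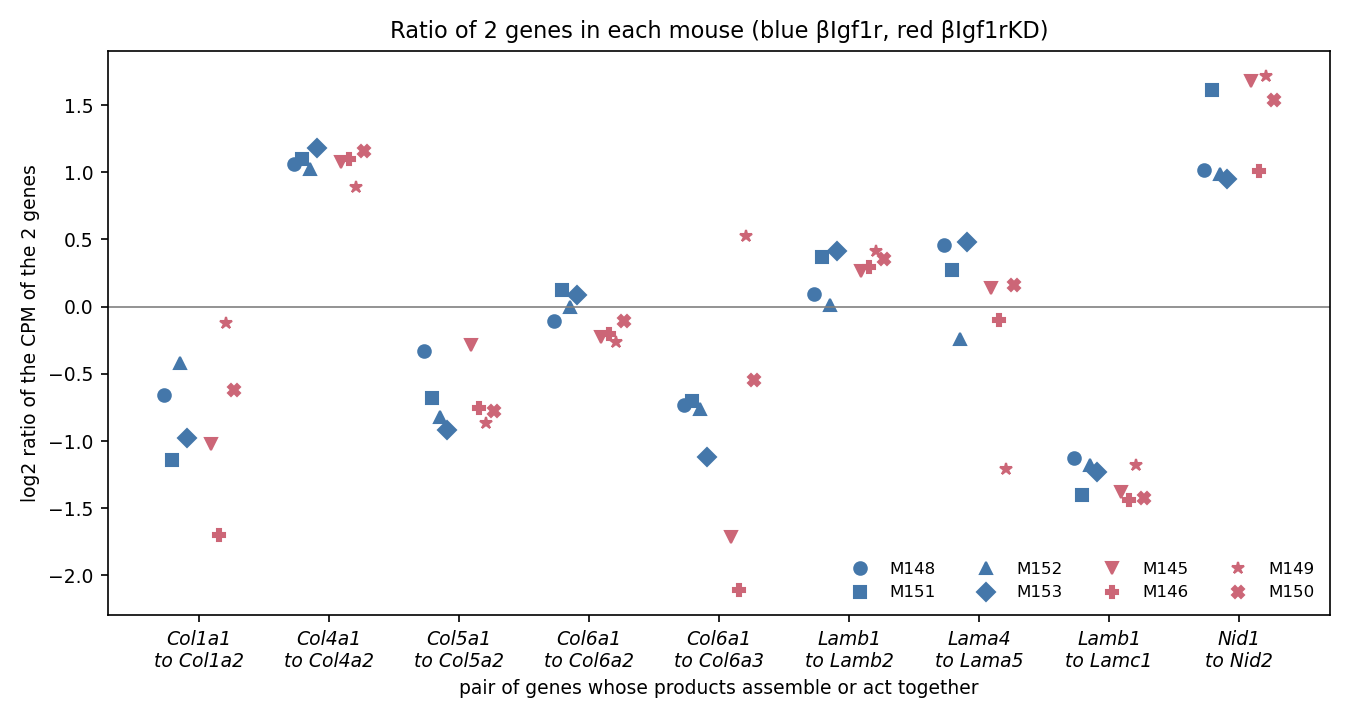
Log2 ratio of the CPM of 2 genes within each library (vertical axis) for 9 pairs of genes (horizontal axis), with βIgf1r mice in blue and βIgf1rKD mice in red. The Col4a1 to Col4a2 ratio is nearly constant, between 0.89 and 1.18, Col6a1 to Col6a3 runs from -2.11 to 0.53 over βIgf1rKD mice, and Col6a1 to Col6a2 is the pair without overlap between the groups.

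Other genes of the same pathway were examined as 6 lists of receptors, processing enzymes, proteases, further matrix genes and ligands, of which 100 genes were tested. Of these, 2 had an unadjusted p under 0.05, beside 4.12% of all genes, and 0 an adjusted one by edgeR. Among 22 matrix receptors 12 had a log2 fold change above 0 and 10 below, with a median of 0.03. Itga6, which encodes the α6 integrin chain of laminin receptors, had 30, 34.6, 37.5 and 35.3 CPM and 45.8, 36.02, 49.1 and 39.02 CPM, a log2 fold change of 0.31 (SE 0.11, unadjusted p = 0.0232 by edgeR) that was 0.23 without M149 (unadjusted p = 0.0685 by edgeR). Itgb4, its partner chain in epithelial hemidesmosomes, had 4.34, 2.62, 9.36 and 3.697 CPM and 6.78, 2.57, 40.8 and 4.54 CPM, far higher in M149 than in any other mouse. Among 14 other basement membrane genes 7 were above 0 and 7 below, with a median of -0.01. Lama3, which encodes the laminin α3 chain of epithelia, had 4.69, 5.86, 6.05 and 8.15 CPM and 3.74, 3.57, 3.57 and 4.66 CPM without overlap between the groups, a log2 fold change of -0.66 (SE 0.19, unadjusted p = 0.00582 and adjusted p = 0.987 by edgeR).

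No gene of the remaining lists reached an unadjusted p under 0.05 by edgeR. Of 16 genes for collagen synthesis and processing 11 had a log2 fold change above 0, with a median of 0.02, and among them Serpinh1, the collagen chaperone gene, had 17.8, 15.96, 26.2 and 21.6 CPM in βIgf1rKD mice against 17.4 to 25.9 CPM in βIgf1r mice. Of 12 matrix proteases and inhibitors 10 were above 0 with 8 mice, with a median of 0.22, and 4 without M149, with a median of -0.04. Mmp2, which encodes gelatinase A, had 1.12, 0.286, 9.66 and 5.85 CPM in βIgf1rKD mice and 1.71 to 3.03 CPM in βIgf1r mice, the order of mice seen for the collagens. Of 29 other interstitial matrix genes 12 were above 0, with a median of -0.09, and M149 was the highest mouse for 14. Of 7 PDGF and TGF-β ligands 4 were above 0, with a median of 0.16. The collagen synthesis and processing genes had a median range of 1.31-fold in βIgf1rKD mice, the proteases and inhibitors 2.46-fold and the other interstitial matrix genes 2.09-fold, beside 1.36-fold over all genes.

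Markers of the cells that an islet preparation can hold were set beside these values. Apart from the fits with the acinar or endothelial score as a covariate, their part in the values of the matrix genes was not tested. The endothelial markers summed to 587, 474, 539.7 and 553 CPM in βIgf1r mice and 418, 425, 471 and 434 CPM in βIgf1rKD mice without overlap, and all 11 tested had a log2 fold change below 0, 6 of them with an unadjusted p under 0.05 by edgeR, beside 1.89% of all genes. Mural markers outside the pericyte list summed to 170.4, 186, 150 and 186 CPM and 142, 134, 141 and 161 CPM. Of the 9 tested 6 were below 0. The pericyte markers Rgs5 (log2 fold change -0.31, unadjusted p = 0.0271 by edgeR) and Kcnj8 (-0.53, unadjusted p = 0.0371 by edgeR) were those under 0.05, beside 1.89% of all genes. Mouse M149 had the highest basement membrane sum of all 8. Its endothelial sum was below every βIgf1r mouse and the highest of the βIgf1rKD mice. Mouse M145 had the lowest sum of all 8 for both lists.

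Fibroblast markers summed to 127, 120.1, 119 and 103 CPM and 79.5, 98.3, 123 and 106 CPM, a sum made up mostly of Gsn, the gelsolin gene, at 68.2 to 108.6 CPM, and 7 of 9 had a log2 fold change below 0. Dpt, the dermatopontin gene, was the 1 gene of these with an unadjusted p under 0.05, beside 1.89% of all genes. It had 2.34, 3.75, 1.71 and 2.61 CPM and 1.54, 0.536, 2.09 and 1.504 CPM, a log2 fold change of -0.88 (SE 0.39, unadjusted p = 0.0497 by edgeR). Mouse M149 was the highest for 4 of the 9, Pdgfra, Cygb, Clec3b and Scara5, and M151 for Thy1, Dpt and Medag. Pdgfra, the receptor gene that defines most fibroblasts, had 1.304, 3.24, 1.25 and 0.995 CPM and 0.561, 0.2499, 4.09 and 1.85 CPM, highest in M149 and lowest in M146 like the collagens. Pdpn, another fibroblast marker, was below the filter. Macrophage markers summed to 119, 171, 145.8 and 124 CPM and 137, 138, 295 and 199 CPM, and were highest in M149, with 8 of 9 genes above 0 and 2 of them with an unadjusted p under 0.05, beside 2.23% of all genes. Duct markers summed to 216, 204, 236 and 231 CPM and 223, 245, 269.5 and 220.1 CPM, highest in M149, a sum made up mostly of Krt7. Mouse M149 was the highest for 4 of the 6 tested, Krt19 among them at 25.6 CPM against 1.32 to 5.29 CPM in the other 7 mice. It was not the highest for Krt7, the most abundant, at 135, 194, 139.5 and 139.9 CPM in βIgf1rKD mice, and was the lowest for Tspan8, at 25.5, 23.3, 22.1 and 35.5 CPM. Acinar markers summed to 16280, 27710, 161900 and 86580 CPM and 174200, 35590, 201400 and 116900 CPM, highest in M149 and next highest in M145. The fibrillar matrix sum was 773 CPM in M149 and 240.1 CPM in M145. With the acinar score as a covariate, 11 of the 25 fibrillar matrix genes were above 0, with a median of -0.04. All 7 Schwann cell markers tested were below 0, and M149 was the lowest mouse in their sum. Of the mesothelial markers, Msln alone was tested, and M149 was not high, at 18.9 CPM against 13.98 to 27.8 CPM in the other mice. Of the 9 β-cell markers 4 were above 0 and 5 below. The insulin gene Ins2 was at 90220 to 138500 CPM in all 8 mice and overlapped between the groups. The other insulin gene, Ins1, had 31090 to 50370 CPM in βIgf1r and 19120 to 28540 CPM in βIgf1rKD mice without overlap, a log2 fold change of -0.92 (SE 0.33, unadjusted p = 0.0204 and adjusted p = 0.987 by edgeR).

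**Figure D5:**
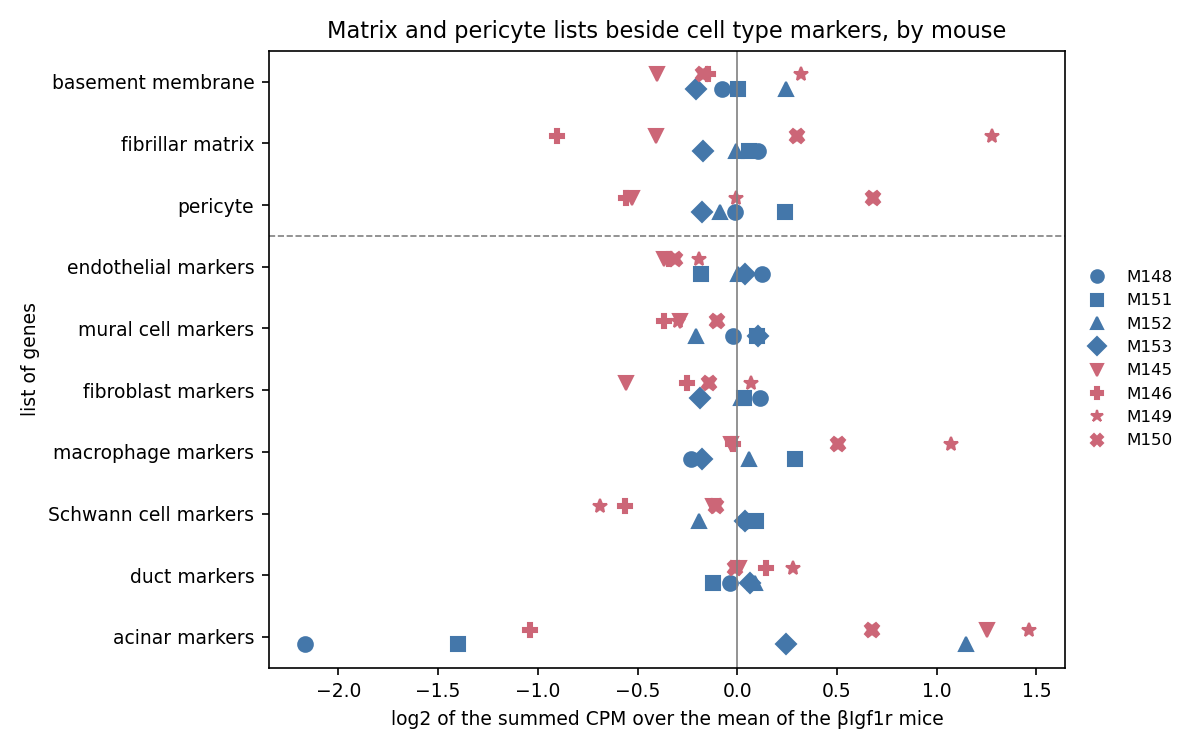
Log2 of the summed CPM of each list (rows) in each mouse over the mean of the βIgf1r mice (horizontal axis), with the matrix and pericyte lists above the dashed line and cell type markers below it. Mouse M149 (star) is the highest for fibrillar matrix, macrophage, duct and acinar markers and not for endothelial or mural markers, and βIgf1rKD mice (red) lie to the left of βIgf1r mice (blue) for endothelial markers.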

How the data were processed

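Islets of 4 βIgf1r and 4 βIgf1rKD mice were sequenced, and each count column was matched to its mouse by the number in the labels. The deposited values are estimated counts per gene, made by the authors from stranded mRNA libraries and not normalised. The labels' processing notes name fastp, kallisto and GRCm38, and versions, annotation and filters are not given in the sources used here. Of the values 13.4% were not whole, and all were rounded. Of 53012 Ensembl identifiers 51906 were matched to a symbol, and 200 shared a symbol with another. The totals of 21633925 to 42391106 leave counting error small except for genes such as Lox, with 2 to 115 counts. Pseudo-aligned counts can split reads between near-identical genes.

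The filter of edgeR 4.0.16 (10 counts in at least 4 mice after scaling, 15 in all) kept 15474 genes. βIgf1rKD and βIgf1r mice were then compared gene by gene in R 4.3.3 (edgeR's quasi-likelihood F test, TMM factors, Benjamini-Hochberg adjustment over the 15474 genes). TMM factors also enter CPM, and a prior count of 2 was added for log2 CPM. Levels per kb use the longest principal protein-coding transcript of GENCODE M21. Ratios of 2 genes used a prior count of 0.5 and an exact permutation test over 70 assignments of the mice, adjusted over 9 pairs. No test was made over a list, which is described by counts and medians.

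The 42 genes, the further lists, the cell type markers and the tests were chosen with earlier results of these data known. Genes named with a test are those with an unadjusted p under 0.05, those without overlap, the highest and the lowest log2 fold change of each list and its 3 highest levels per kb, and in the further lists the 2 smallest p in each direction under 0.05. Other genes are given as values. Upstream sequences are RefSeq's on GRCm38.p6, matched by symbol, and no sequence is shown for 2 genes of a chromosome not reported here.

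The comparison was repeated by DESeq2 1.42.0 and by limma-voom (limma 3.58.1), with RLE size factors, with no filter, with at least 10 counts in every mouse, and with the acinar score, the endothelial score or Xist as a covariate. For sums they were the mean log2 CPM, and for ratios a prior count of 2. All fits were repeated without each of the 8 mice. No sex was assigned. The scripts were tested on simulated counts. That the mice are separate animals is stated in the study's methods. Figures use matplotlib 3.10.9 (Python 3.11.15).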

Additional observations from a re-analysis of the deposited data

Results flagged for a closer look

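In each group of 4 mice, the gap between the most distant mouse and the nearest other mouse was divided by the range of the group, for the 42 genes, the list sums and the ratios. In 4 of 112 such sets the share exceeded Dixon's critical value, where chance gives about 5.6. Col15a1 stood apart in mouse M149 of the βIgf1rKD mice, with a share of 0.873, at 5.325 on the log2 CPM scale where the other 3 lay between 4.29 and 4.42. Col18a1 stood apart in mouse M153 of the βIgf1r mice, with a share of 0.888, at 1.495 against 2.41 to 2.52. The log2 ratio of Col6a1 to Col6a3 stood apart in M153 as well, with a share of 0.857, at -1.12 against -0.76 to -0.70. The log2 ratio of Nid1 to Nid2 stood apart in M151 of the βIgf1r mice, with a share of 0.899, at 1.61 against 0.95 to 1.02, a level that 3 βIgf1rKD mice also had. No fibrillar collagen gene did so.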

How the results depend on the processing

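No gene of the 42 had an adjusted p under 0.05 under any alternative run. The number at an unadjusted p under 0.05, 1 with all mice, was 2 with the acinar score, 10 with the endothelial score and 5 with Xist as a covariate, and 0 to 5 with a mouse left out. The endothelial score did not overlap between the groups, so that its part and the group's cannot be told apart in that fit. It turned the median log2 fold change of basement membrane genes to 0.23, of fibrillar matrix genes to 1.79, of pericyte genes to 0.23 and of all 42 to 0.81, and it turned Col4a1 to 0.145, Col4a2 to 0.30, Col15a1 to 0.40, Nid2 to 0.20, Pdgfrb to 0.23 and Igf1r to 0.083. With Xist as a covariate Col4a1 was 0.036, Col4a2 0.11, Col15a1 0.069, Acta2 -0.11 and Igf1r 0.023. Sparc was -0.051 by limma-voom and -0.04 with the acinar score, and Lox -0.046 and -0.18. The basement membrane genes above 0, 2 of 12, were 1 by limma-voom, 1 with the acinar score, 8 with the endothelial score, 6 with Xist and 0 to 6 with a mouse left out. Of the 25 fibrillar matrix genes 12 were above 0 by limma-voom, 11 with the acinar score and 4 to 24 with a mouse left out, and of the 5 pericyte genes 1 with Xist and 0 to 3 with a mouse left out. The further lists had 4 genes at an unadjusted p under 0.05 without a filter, 16 with the endothelial score, 10 with Xist and 2 to 7 with a mouse left out, beside 2 in the fit reported. Over all genes the number was 637, and 1098 without a filter, 390 with the acinar score, 1143 with Xist and 383 to 1114 with a mouse left out. The number over all genes with the endothelial score is not given here, so the counts of 10 and 16 cannot be set against it. With a mouse left out, the log2 fold change ranged from -0.17 to 0.055 for Col4a1, -0.20 to 0.12 for Col4a2, -0.34 to 0.074 for Col15a1, -0.076 to 0.47 for Lama5, -0.30 to 0.14 for Sparc, -0.315 to 0.845 for Bgn, -0.18 to 0.77 for Mgp, -0.47 to 1.501 for Lox, -0.51 to 0.41 for Acta2 and -0.19 to 0.69 for Tagln. The differences of the pairs ranged from -0.31 to 0.21 for Col1a1 to Col1a2, -0.07 to 0.019 for Col4a1 to Col4a2, -0.11 to 0.13 for Col5a1 to Col5a2, -0.27 to -0.19 for Col6a1 to Col6a2 and -0.63 to 0.25 for Col6a1 to Col6a3. With 3 mice against 4, the permutation test cannot go below 0.0571. The pericyte median turned to 0.01 without M145. Other size factors, DESeq2 and the stricter filter changed no direction of a list. No paired analysis was possible because the groups share no mouse number. Depth limits the genes of few counts, such as Lox.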
